A study of Mus musculus with 2 samples.

Results

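Cluster C08 is a group of tumor cells with high Spp1 (osteopontin) and Dmp1, 2 genes of bone matrix proteins, taken from a single-cell RNA sequencing study of mouse tumors. Its members are all cells that the authors' deposited annotation places in cluster C08, and every one of them carries the cell class Tumor there. They number 671 cells, 392 from the WT library and 279 from the S303/7A library, of 11456 cells in all and of 3267 cells of the Tumor class. The other clusters of that class are C01 with 1308 cells, C04 with 913 and C14 with 375.

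Tumors were engrafted into mice, and the 2 samples differ in genotype, read here as that of the host. It was wild-type (WT), or had alanine in place of the serines 303 and 307 of HSF1 (S303/7A). HSF1, heat shock factor 1, drives chaperone genes under protein stress. The study's title asks about the stress response of natural killer cells, and the labels give a genotype for each tumor sample. They do not say which tumor line was engrafted or whether its own Hsf1 was altered, and they give neither age nor strain. Digested tumors were sorted into live cells with and without CD45, a surface protein of leukocytes, the sorted cells were mixed, and droplet libraries of RNA 3′ ends were made. Mice were pooled, which leaves 1 library per genotype. No difference below therefore has a replicate check, no test between genotypes was possible, and all intervals are 95% intervals that cover counting error only.

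Osteopontin, dentin matrix protein 1 and bone sialoprotein (Ibsp) are acidic, phosphorylated glycoproteins of the SIBLING family, which bind calcium and cell surface integrins and take part in the mineralisation of bone and dentin. Their genes lie side by side on the same chromosome. Osteopontin is also made by many cells outside bone, tumor cells and macrophages among them, while Dmp1 and Ibsp are largely genes of osteocytes, odontoblasts and osteoblasts.

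Depth was high in these cells. The median C08 cell had 26113 UMIs (unique molecular identifiers, each standing for 1 captured RNA molecule) in WT and 30299 in S303/7A, and 4436 and 4719 genes were detected in it. The median share of mitochondrial UMIs was 3.69% and 3.94%. In the deposited copy number groups, 89.0% of C08 cells in WT and 93.9% in S303/7A belonged to CNV3, against 44.7% and 39.5% of C01 cells, while C04 (87.1% and 76.7%) and C14 (89.5% and 87.5%) lay nearer to C08. The libraries shared 48 cell barcodes, and 6 C08 cells carried one of these. Levels are given as UMIs per 10000 UMIs of a cell, averaged over cells (CP10K), so a lower level is a smaller share of a cell's RNA.

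C08 took up a larger share of the tumor cells in the S303/7A library. It made up 16.8% (15.3 to 18.4) of 2332 Tumor class cells in WT and 29.8% (26.9 to 32.9) of 935 in S303/7A, a ratio of 1.78 (1.52 to 2.08). Leaving C04 out of the denominator gave 25.3% and 34.8%, a ratio of 1.38. The shares come from 1 library each, and the sort and the pooled mice cannot be told apart from the genotype.

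**Figure D1:**
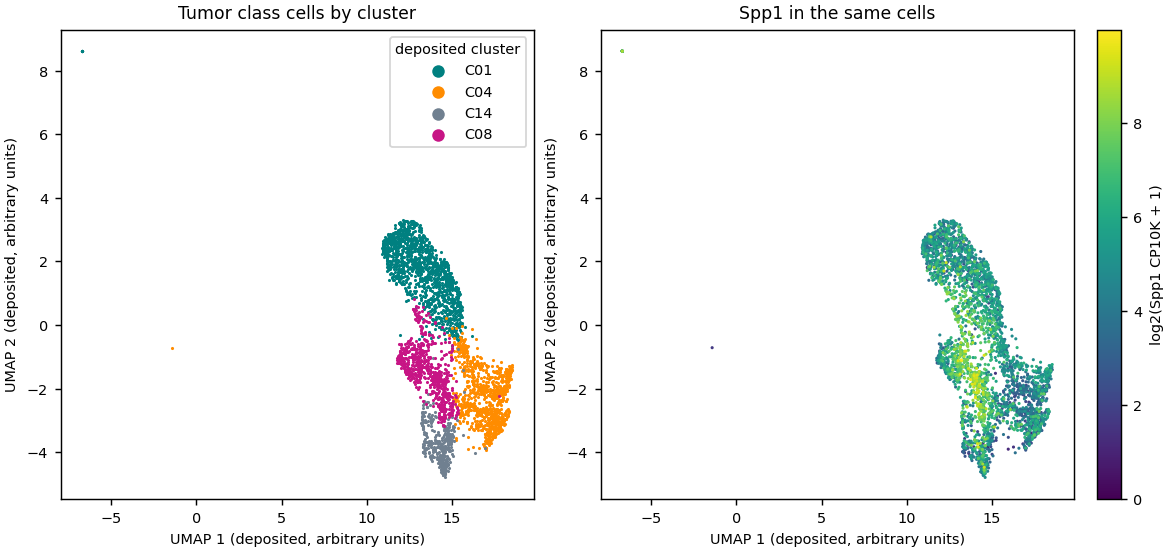
Cells of the 4 tumor clusters on the deposited UMAP axes (arbitrary units), colored by cluster on the left and by log2(Spp1 CP10K + 1) on the right. C08 lies between C01, C04 and C14 and holds most of the cells with the highest Spp1, and Spp1 is also uneven inside C08.

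Of 8356 genes with at least 0.1 CP10K in a tumor cluster of either library, 14 (0.168%) were at least 1.5-fold higher in C08 than in each of C01, C04 and C14 in both libraries, and 3 (0.0359%) were at least 1.5-fold lower. The clusters were made from these same genes, so the counts describe C08 and test nothing. In order of their smallest ratio they included Dmp1, Ace, Notum, Ibsp, Klhl4, Slc20a1, Spp1, Nrn1, Isl1, Gpc4, Hopx, Serpina3n and Nudt4. Log2 ratios of levels were taken with 0.1 CP10K added to both, which understates the difference of low genes. Ratios of summed UMIs carry no such addition. The added value sets the counts: with 0.02 CP10K there were 29 C08-high and 9 C08-low genes, and with 0.5 CP10K 6 and 1.

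Spp1, on chromosome 5 (GRCm38 chr5:104435118-104441050), supplied 1.58% of all UMIs of C08 in WT and 1.71% in S303/7A. In WT its level was 149.8 CP10K in C08, 45.8 in C01, 28.1 in C04 and 39.1 in C14. In S303/7A it was 164.7 in C08, 55.3 in C01, 30.9 in C04 and 83.8 in C14. C08 was the highest cluster in both libraries, and C14 of the S303/7A library came nearest, at a ratio of summed UMIs of 1.80 (1.78 to 1.82) against 4.45 (4.40 to 4.51) in WT. Macrophages, which can make osteopontin, held 2.80 and 2.03 CP10K of Spp1 here. That was near the level in CD8 T cells (2.35 and 1.65) and below that in natural killer cells (7.99 and 7.46). How much of the Spp1 in these immune cells came from RNA outside the cells was not tested.

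Dmp1 (chr5:104202613-104214102), a nucleator of mineral in bone and dentin, was at 1.21 CP10K in C08 of WT against 0.273, 0.142 and 0.106 in C01, C04 and C14. In S303/7A it was at 1.62 against 0.321, 0.348 and 0.384. The ratios of summed UMIs ran from 4.43 (3.82 to 5.16) over C14 in S303/7A to 12.3 (9.90 to 15.5) over C14 in WT. Ibsp (chr5:104299171-104311469), which codes for bone sialoprotein, was at 0.413 CP10K in C08 of WT against 0.115, 0.0322 and 0.0262, and at 0.600 in S303/7A against 0.0572, 0.0572 and 0.0679. It was carried by few cells: 327 of 392 C08 cells in WT and 235 of 279 in S303/7A had no Ibsp UMI, and the highest cell reached 32.6 CP10K. Among CNV3 cells only, the smallest log2 ratios over the other clusters were 0.87 for Spp1, 1.74 for Dmp1 and 1.53 for Ibsp, and with cells thinned to 5000 UMIs they were 0.89, 1.70 and 1.22.

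The 3 genes are neighbours. Within 500 kb of the Spp1 start, Dmp1 begins at -232.5 kb and Ibsp at -135.9 kb, and 5 other genes were measured. Pkd2, at 24.3 kb and the gene of polycystin 2, was at 0.457 CP10K in C08 of WT and 0.427 in S303/7A, with log2 ratios between -0.29 and 0.32 over the other clusters. Nudt9 and BC005561 also stayed between -0.09 and 0.27. Sparcl1, a matrix gene of another family, was as high in C01 (12.3 and 14.02 CP10K) as in C08 (10.3 and 11.7) and low in C04 and C14, and Hsd17b11 had the same order of clusters. High levels against all 3 clusters were thus found for Dmp1, Ibsp and Spp1 alone among the 8 measured genes of the window. Dspp, Mepe and Hsd17b13 also lie in it and were not analysed here, and Gm17660, Zfp951 and Abcg3 fell below the filter of 0.1 CP10K.

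**Figure D2:**
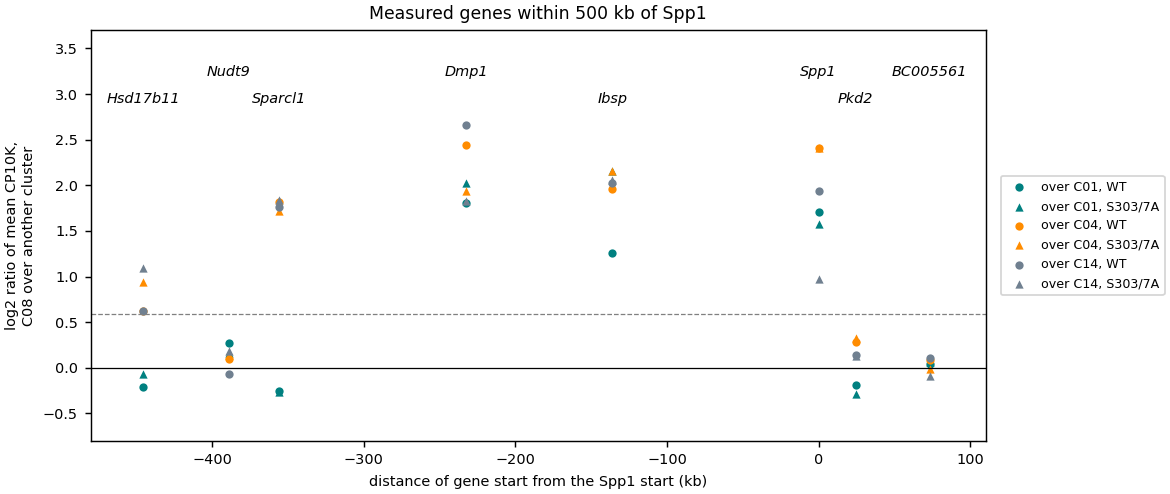
Log2 ratio of mean CP10K (0.1 added) of C08 over C01, C04 or C14 in each library, for the 8 measured genes within 500 kb, against the distance of their start from the Spp1 start in kb. The points of Dmp1, Ibsp and Spp1 all lie above the dashed line at 1.5-fold, and those of Pkd2, Nudt9 and BC005561 lie near 0.

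The promoters of these 3 genes are shown because they mark the genes that set C08 apart and lie within 1 window. They are RefSeq sequences on GRCm38.p6, 300 bases each, from 250 bases before to 50 bases after the start, given 5′ to 3′ on the gene's plus strand: Spp1 at chr5:104434861-104435160, Dmp1 at chr5:104202367-104202666 and Ibsp at chr5:104299037-104299336. Capitals mark the RUNX core (TGTGGT or ACCACA) and the CCAAT box (CCAAT or ATTGG), found by a search for these letters on both strands.

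Spp1: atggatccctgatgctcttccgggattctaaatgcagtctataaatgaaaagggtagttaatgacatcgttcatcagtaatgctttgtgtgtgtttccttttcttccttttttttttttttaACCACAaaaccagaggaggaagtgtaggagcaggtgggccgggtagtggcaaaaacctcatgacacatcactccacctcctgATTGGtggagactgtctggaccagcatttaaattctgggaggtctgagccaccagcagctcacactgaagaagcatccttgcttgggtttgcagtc

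Dmp1: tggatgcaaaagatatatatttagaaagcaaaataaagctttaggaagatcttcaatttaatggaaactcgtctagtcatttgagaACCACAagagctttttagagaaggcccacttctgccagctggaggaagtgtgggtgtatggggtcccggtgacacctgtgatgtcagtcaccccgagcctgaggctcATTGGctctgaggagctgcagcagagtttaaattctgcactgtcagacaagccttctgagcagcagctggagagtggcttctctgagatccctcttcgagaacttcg

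Ibsp: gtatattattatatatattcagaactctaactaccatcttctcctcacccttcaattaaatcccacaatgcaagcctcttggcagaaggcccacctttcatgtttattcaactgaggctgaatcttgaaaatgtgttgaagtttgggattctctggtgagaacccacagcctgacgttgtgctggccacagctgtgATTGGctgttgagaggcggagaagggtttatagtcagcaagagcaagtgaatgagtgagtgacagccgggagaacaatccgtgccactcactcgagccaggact

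The windows of Spp1 and Dmp1 held 1 RUNX core each, that of Ibsp held 0, and each of the 3 held 1 CCAAT box. Among all 32851 RefSeq mouse promoter windows, 16.76% held the RUNX core and 37.41% the CCAAT box, so either is common, and a match of letters is a description and not a site. Runx2, the osteoblast factor that binds the RUNX core, was at 0.286 CP10K in C08 of WT and 0.289 in S303/7A, beside 0.287 and 0.265 in C01, 0.145 and 0.172 in C04, and 0.191 and 0.234 in C14. Its RNA level in C08 was like that of C01, and whether it acts on these genes was not tested.

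Other defining genes of bone-forming cells gave a mixed picture. Of the 10 measured members of an osteoblast and osteocyte list, 3 (Twist1, Mef2c and Fbln7) were at least 1.5-fold higher than in C04 in both libraries and 0 lower, with medians of 0.28 and 0.14 on the log2 scale. Over C14 2 were higher and 2 lower (medians 0.57 and 0.22), and over C01 1 was higher and 3 lower (medians -0.04 and -0.01). Over all genes 3.54% were higher and 6.82% lower than in C04. The shares were 4.69% and 2.58% over C14, and 2.56% and 4.44% over C01. The osteoblast markers Runx2, Alpl, Ibsp and Bglap summed to 0.698 CP10K in C08 of WT, against 0.402 in C01, 0.177 in C04 and 0.217 in C14, and to 0.892 in S303/7A, against 0.322, 0.229 and 0.302, and Runx2 and Ibsp made up nearly all of it. Alpl, the alkaline phosphatase of osteoblasts, had 0 UMIs in C08 of either library and was at 0 in the other tumor clusters too. In C08 a count of 0 allows up to 0.00287 CP10K in WT and 0.00346 in S303/7A. Bglap (osteocalcin) had 0 UMIs in WT and 5 in S303/7A, all in 1 cell. Col1a1, the main chain of bone collagen, was at 0.319 and 0.0839 CP10K in C08 against 3.21 and 3.03 in C01. Sp7, Acan and Col2a1 were not analysed here, and Sox9, a factor of cartilage progenitors, was at 1.83 and 1.96 in C08, below C14 (3.18 and 2.98). The name bone-matrix-like rests on the SIBLING genes, while Alpl was not detected, Bglap was seen in 1 cell and Col1a1 was lower than in C01, and the cells are called C08 below.

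Macrophage and endothelial markers were low in C08, and fibroblast markers were not. The 7 macrophage markers summed to a mean of 1.68 CP10K in C08 of WT and 2.60 in S303/7A, against 167 and 222 in the macrophage class, with 0 of 7 at 0. Ptprc, the gene of CD45, was at 0.0370 and 0.0343. Of the 3 endothelial markers Kdr was at 0, and the summed level was 0.0205 and 0.0232. The 4 fibroblast markers (Pdgfra, Dcn, Lum and Col3a1) summed to 9.40 and 11.1 CP10K, with 0 of 4 at 0 and a UMI in 98.7% and 100% of C08 cells. That was below C01 (22.3 and 21.7) and above C04 (3.03 and 3.56) and C14 (3.63 and 6.48), and Col3a1 was most of the sum (7.57 and 8.96).

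Across a list of bone matrix genes, C08 differed from each neighbour in its own way. Of 17 measured members 3 (Spp1, Dmp1 and Ibsp) were among the 14 C08-high genes. Against C01, 4 members were at least 1.5-fold higher in both libraries and 9 lower, where 2.56% of all genes were higher and 4.44% lower. The lower ones included Postn (0.127 and 0.134 CP10K in C08, 2.85 and 3.35 in C01), the periosteal matrix gene, and Lum and Dcn, small proteoglycans of fibrous tissue. Against C14, 11 of 17 were higher and 1 lower, beside 4.69% and 2.58% of all genes. Among these Bgn, the proteoglycan biglycan, was at 15.6 and 15.2 CP10K in C08 and 7.82 and 8.18 in C14. Against C04, 7 were higher and 0 lower, beside 3.54% and 6.82% of all genes.

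Collagens and their processing enzymes had the same order. Of 26 measured members, 8 were lower than in C01 and 1 higher, while 11 were higher than in C14 and 1 lower, and 4 were higher than in C04 and 0 lower. The shares over all genes are those given beside the bone matrix list. Col1a2 was at 7.93 and 7.42 CP10K in C08, between C01 (14.5 and 15.5) and C14 (3.50 and 2.74). C08 thus held an intermediate level of fibrous collagen and the highest level of the SIBLING genes.

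Genes that set phosphate and pyrophosphate outside the cell formed the other mineral group. Slc20a1, a sodium-phosphate cotransporter that feeds phosphate into cells and matrix vesicles, was at 0.995 CP10K in C08 of WT against 0.0966, 0.320 and 0.340 in C01, C04 and C14, and at 0.790 in S303/7A against 0.0620, 0.284 and 0.349. Over C01 the ratios of summed UMIs were 11.0 (WT, 9.38 to 13.1) and 14.6 (S303/7A, 11.1 to 19.4). Ank, which exports pyrophosphate and ATP and so opposes crystal growth, was at 7.91 and 7.00 in C08, 3.00 and 2.89 in C01, 4.20 and 4.27 in C04, and 5.49 and 4.68 in C14. Enpp1, which makes pyrophosphate, and Fam20c, the kinase that phosphorylates SIBLING proteins, were higher than in C01, at 0.162 against 0.0445 and at 0.201 against 0.0706 in WT. In all, 5 of 11 measured members were higher than in C01, 5 higher than in C04, 1 (Slc20a1) higher than in C14, and 0 were lower in any of the 3 comparisons. Over all genes 2.56% were higher than in C01, 3.54% than in C04 and 4.69% than in C14.

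Other C08-high genes have other roles. Ace, angiotensin-converting enzyme, was at 0.939 and 1.09 CP10K in C08 and at most 0.261 in any other cluster. Notum, a secreted lipase that inactivates Wnt proteins, was at 0.594 and 0.546 against at most 0.189. Klhl4, a member of the kelch-like family, was at 0.159 and 0.377 in C08 and between 0.00395 and 0.0252 elsewhere, which gave ratios of summed UMIs from 9.97 (6.97 to 14.6) over C04 in WT to 45.9 (21.99 to 115) over C01 in S303/7A. It was also higher in C08 of S303/7A than in C08 of WT.

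Nrn1, the gene of neuritin, was at 5.15 and 5.87 CP10K in C08 and at most 2.96 elsewhere. Gpc4, a heparan sulfate proteoglycan of the cell surface, was at 1.28 and 1.32 against at most 0.723. Isl1 and Hopx, both homeobox genes, were at 0.252 and 0.332 and at 0.287 and 0.391. Serpina3n, a protease inhibitor, and Nudt4, an inositol phosphate hydrolase, were also C08-high, with Nudt4 nearest the threshold at 3.71 and 3.99 against at most 2.58.

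The 3 C08-low genes were Cxcl10, Rsad2 and Tmsb4x. Cxcl10, an interferon-induced chemokine that draws T cells and natural killer cells, was at 0.446 and 0.285 CP10K in C08. In WT it was at 4.00 in C01, 1.66 in C04 and 1.37 in C14, and in S303/7A at 0.705, 0.642 and 2.24. Tmsb4x, an actin-binding peptide, was at 27.1 and 20.5 in C08 and between 31.7 and 53.2 elsewhere. Rsad2 (viperin), named here after its values were seen because it was outside the naming rule, was at 0.0551 and 0.0460. Without the cells with the highest doublet scores Cxcl10 and Rsad2 were not lower in every comparison.

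**Figure D3:**
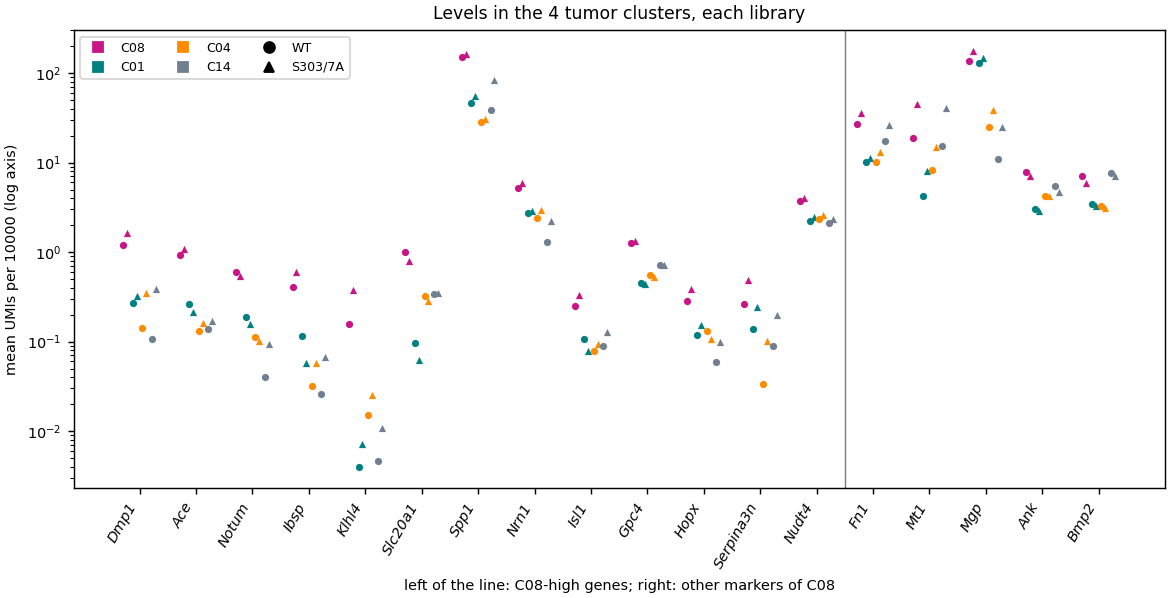
Mean CP10K on a log axis of the named C08-high genes (left of the line) and the other 5 markers of C08 (right), in the 4 tumor clusters (colors) of the WT (circles) and S303/7A (triangles) libraries. C08 is above every other point of its own library for these genes, whereas Mgp in C01, Mt1 in C14 and Bmp2 in C14 come near to or above C08.

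The other markers given for C08 were shared with a neighbour. Mgp, matrix Gla protein, an inhibitor of calcification, was at 136 and 176 CP10K in C08 and at 130 and 148 in C01, and far lower in C04 (24.9 and 38.4) and C14 (11.0 and 24.8). Bmp2, a ligand that drives bone formation, was at 7.03 and 5.98 in C08 and slightly above that in C14 (7.62 and 7.05). Fn1, fibronectin, was at 26.9 and 35.5 in C08, and C14 was next at 17.2 and 26.3. Mt1, a metal-binding metallothionein, was at 18.7 and 44.7 in C08 and at 15.5 and 40.2 in C14.

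Proliferation genes were lower in C08 than in C04. All 20 members of a proliferation list were at least 1.5-fold lower in C08 than in C04 in both libraries, beside 6.82% of all genes. The medians were -2.45 and -2.49 on the log2 scale, beside -0.04 and -0.03 over all genes. All 20 reached 0.1 CP10K in C04, but only 5 did in C08, 6 in C01 and 5 in C14. The count against C04 was thus set in part by the filter. Top2a, the topoisomerase of dividing cells, was at 0.168 and 0.195 CP10K in C08 and at 2.69 and 2.02 in C04. Against C01 and C14 the list's medians lay between -0.01 and 0.05, with Top2a lower than in C01 (0.559 and 0.535). Most members were near the floor in these clusters, where the added 0.1 CP10K pulls ratios toward 0, so these medians do not show equal levels.

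The integrated stress response, which translates Atf4 when eIF2α is phosphorylated, separated C08 from C14. Of 23 measured members 13 were lower in C08 than in C14 and 0 higher, while 9 were higher than in C01 and 0 lower, and 3 were higher than in C04 and 5 lower. Over all genes 2.58% were lower and 4.69% higher than in C14. Against C01 2.56% were higher and 4.44% lower, and against C04 3.54% and 6.82%. Ddit3 (CHOP) was at 0.797 and 0.644 CP10K in C08, 0.490 and 0.476 in C01 and 4.37 and 3.57 in C14. Asns, asparagine synthetase, was at 0.418 and 0.277 in C08, 0.103 and 0.0744 in C01 and 1.17 and 0.943 in C14. C08 thus lay between those clusters for this list.

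Ligands and feedback inhibitors of the FGF and EGF receptors, which act through ERK, were higher in C08 than in C04 for most measured members and mixed against C01 and C14. Over C01, 5 of 16 measured members were higher (Areg, Ereg, Hbegf, Dusp5 and Phlda1) and 3 lower, with medians of 0.33 and 0.22. Over C04 9 were higher, including Fgfr1, Spry1, Spry2, Spry4 and the ERK phosphatase Dusp6, and 1 (Hbegf) was lower, with medians of 0.61 and 0.60. Over C14 3 were higher (Fgfr1, Spry1 and Dusp6) and 3 lower (Areg, Hbegf and Dusp5), with medians of 0.06 and 0.05. Of all genes 2.56% were higher and 4.44% lower than in C01. The shares were 3.54% and 6.82% over C04, and 4.69% and 2.58% over C14. Areg, the EGF receptor ligand amphiregulin, was at 0.801 CP10K in C08 of WT, 0.0565 in C01, 0.919 in C04 and 1.46 in C14. Dusp6 was at 1.27 and 0.804 in C08, above C04 (0.679 and 0.486) and C14 (0.684 and 0.483) and near C01 (1.31 and 1.02).

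The cells of C08 were not alike in Spp1. The cell at the 10th percentile had 23.6 CP10K in WT and 16.9 in S303/7A, the median cell 101 and 128, and the cell at the 90th percentile 309 and 368. Of C01 cells 10.2% and 8.27% lay above the median C08 cell of their library, of C04 cells 4.23% and 0%, and of C14 cells 10.0% and 18.4%. The distributions therefore overlapped, with C14 of the S303/7A library overlapping most.

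To describe how many of the low C08-high genes a cell held, each cell was thinned to 5000 UMIs, which left out 1 S303/7A cell of C08. At least 1 of Dmp1, Ibsp, Ace, Slc20a1, Notum and Klhl4 had a UMI in 68.9% (64.0 to 73.4) of WT and 72.3% (66.6 to 77.5) of S303/7A cells of C08, and in 31.1% and 30.2% of C01, 24.2% and 28.0% of C04 and 23.9% and 31.8% of C14. At least 3 of the 6 were found in 13.8% and 14.7% of C08 cells, and in at most 1.15% of cells of any other tumor cluster. The 6 genes were chosen as high in C08, so higher shares in C08 follow from the choice. Whether they share cells more often than their separate rates would give was not tested. CD8 T cells, which should lack Dmp1, showed a Dmp1 UMI in 0.889% and 0.185% of thinned cells (median depth before thinning 6294 and 8325 UMIs), against 25.8% and 33.1% of C08. Without thinning, Dmp1 was seen in 55.9% and 62.4% of C08 cells and in 0.866% and 0.486% of CD8 T cells. The abundant genes did not separate the cells in this way. Spp1 had a UMI in 64.2% and 46.4% of thinned CD8 T cells, and Mgp in 58.2% and 48.1%.

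Within C08 the genes whose level followed Spp1 most closely over cells were led by Fn1 and Ank. Spearman's rho over the thinned cells (392 in WT, 278 in S303/7A, 2117 genes ranked) was 0.55 and 0.60 for Fn1, 0.53 and 0.53 for Ank, 0.39 and 0.47 for Dmp1, 0.33 and 0.46 for Prkg2, a cGMP-dependent kinase, and 0.43 and 0.33 for Mgp. Slc20a1 (0.32 and 0.34), Bmp2 (0.31 and 0.31), Arpc1b, Hmga2 and Tinagl1 came next. The lowest values were those of Crabp1, a retinoic acid binding protein (-0.44 and -0.40), Vim (-0.31 and -0.39) and Gas1 (-0.28 and -0.35), with Col3a1 also among the lowest 10 (-0.24 and -0.26). These points share their library, and the share of Spp1 itself had a rho of 0.20 and 0.17 with a cell's total UMIs, so the correlations are given as descriptions.

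The second question was how C08 of the S303/7A library differed from C08 of the WT library. Of 7146 genes with at least 0.1 CP10K in C08 of either library, 57 (0.798%) were at least 1.5-fold higher in S303/7A and 46 (0.644%) at least 1.5-fold lower. The median log2 ratio over these genes was -0.03, and 57.3% lay below 0 and 42.7% above. Thinning to 5000 UMIs gave 142 higher and 182 lower genes, a pseudocount of 0.02 CP10K 126 and 158, and 0.5 CP10K 16 and 8, so neither direction held the majority under all settings. In the other tumor clusters, 0.429% of genes were higher and 1.39% lower in C01, 0.492% and 1.2% in C04, and 2.46% and 1.61% in C14. Hsf1 itself, which the labels do not say to be altered in tumor cells, was at 0.221 CP10K in C08 of WT and 0.173 in S303/7A, a ratio of summed UMIs of 0.804 (0.652 to 0.988). The count table cannot show the serine to alanine changes.

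Of the SIBLING genes Spp1 was near even between the libraries, while Dmp1 and Ibsp were higher in S303/7A by less than 1.5-fold after the addition of 0.1 CP10K. Spp1 had a log2 ratio of 0.14 and a ratio of summed UMIs of 1.08 (1.08 to 1.09), Dmp1 of 0.40 and 1.46 (1.36 to 1.57), and Ibsp of 0.45 and 1.58 (1.39 to 1.78). Ibsp was found in 16.6% of C08 cells in WT and 15.8% in S303/7A, so the share of cells with it was not higher. Its ratio rests on few cells, and the interval does not cover the spread between cells. Of the 14 C08-high genes, 2 were at least 1.5-fold higher in S303/7A, Klhl4 (log2 ratio 0.88) and Serpina3n (0.67), beside 0.798% of all genes, and 0 were lower. The median of the 15 bone matrix genes measured in C08 was 0.04, with Dcn higher (0.722 CP10K in WT and 1.16 in S303/7A) and Col1a1 lower (0.319 and 0.0839), and 0 of the 10 mineral genes passed 1.5-fold in either direction.

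Metallothioneins were among the genes highest in S303/7A. Mt1 was at 18.7 CP10K in C08 of WT and 44.7 in S303/7A, a ratio of summed UMIs of 2.40 (2.36 to 2.44). Mt2, its neighbour, was at 0.475 and 0.887, with a ratio of 1.67 (1.5 to 1.87). Mt2 was found in only 27.3% of C08 cells in WT and 28.0% in S303/7A, so its ratio rests on a minority of cells. Mt1 was higher in S303/7A in each of the other clusters too, with log2 ratios of 0.91 in C01, 0.85 in C04 and 1.37 in C14, beside 1.25 in C08. Mt1 and Mt2 were the 2 of 15 measured members of the metal-handling list past 1.5-fold higher in C08, and 0 were lower. Over all genes 0.798% were higher and 0.644% lower.

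Metallothionein genes are switched on by metals through the factor MTF1, which binds a metal response element. Their promoters are shown because both genes were higher and both carry this element's core, whose letters were searched as TGCACNC or TGCGCNC and, on the opposite strand, GNGTGCA or GNGCGCA, and stand in capitals. The windows are RefSeq sequences on GRCm38.p6, Mt1 at chr8:94178839-94179138 and Mt2 at chr8:94172368-94172667, both on the plus strand.

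Mt1: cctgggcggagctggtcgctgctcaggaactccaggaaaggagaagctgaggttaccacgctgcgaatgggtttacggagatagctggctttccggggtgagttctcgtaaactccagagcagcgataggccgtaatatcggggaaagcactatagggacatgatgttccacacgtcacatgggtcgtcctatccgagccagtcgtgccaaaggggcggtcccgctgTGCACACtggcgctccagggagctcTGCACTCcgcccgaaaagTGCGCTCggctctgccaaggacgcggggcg

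Mt2: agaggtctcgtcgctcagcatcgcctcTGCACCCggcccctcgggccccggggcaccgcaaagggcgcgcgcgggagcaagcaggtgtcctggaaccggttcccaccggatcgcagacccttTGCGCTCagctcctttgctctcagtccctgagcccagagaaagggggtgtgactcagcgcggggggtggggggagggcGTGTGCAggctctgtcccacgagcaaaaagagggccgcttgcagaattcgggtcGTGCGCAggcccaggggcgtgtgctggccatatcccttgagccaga

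The Mt1 window held 3 matches and the Mt2 window 4, while 25.7% of all 32851 windows held at least 1. HSF1 binds heat shock elements, and the letters GAANNTTC, found in 7.86% of all windows, had 0 matches in the 5 windows printed here. These counts describe letters only, and binding was not tested.

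Targets of BMP signalling included Id2, which had the highest log2 ratio of the named genes after the addition of 0.1 CP10K. By summed UMIs the ratio of Apoe, given below, was larger. Id2, an inhibitor of helix-loop-helix factors, was at 0.452 CP10K in C08 of WT and 1.54 in S303/7A, with a ratio of summed UMIs of 3.12 (2.80 to 3.48). Id1 was at 0.681 and 1.27, a ratio of 1.83 (1.67 to 2.01), and Id3 at 8.13 and 12.9, a ratio of 1.56 (1.52 to 1.61). Msx1, a homeobox target of the pathway, went the other way, at 0.186 and 0.0678, a ratio of 0.370 (0.271 to 0.499). Of 6 measured members 3 were higher and 1 lower, beside 0.798% and 0.644% of all genes, with a median of 0.33. The ligand Bmp2 was at 7.03 and 5.98, and 0 of 12 measured BMP ligands, receptors and antagonists passed 1.5-fold. Id2 was higher in C01 (log2 ratio 1.20), C04 (0.72) and C14 (0.60) as well.

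The rest of the 12 genes highest in S303/7A included several secreted proteins. Cst3, the protease inhibitor cystatin C, was at 9.76 and 24.5 CP10K, a ratio of summed UMIs of 2.44 (2.38 to 2.50), and its log2 ratio of 1.32 in C08 stood beside 0.69 in C01, 0.90 in C04 and 0.71 in C14. Penk, proenkephalin, was at 0.650 and 1.85, and Cp, the copper oxidase ceruloplasmin, at 0.715 and 1.75. Lcn2, an iron-binding lipocalin, was at 0.107 and 0.443 in C08, and in C14 at 0.190 and 3.64. Cdo1 (cysteine dioxygenase), Mme (neprilysin), Serpine2, Gas1 and Sult5a1 had log2 ratios between 0.97 and 1.33.

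Apoe, the apolipoprotein, was at 0.487 and 1.53 CP10K in C08, a ratio of summed UMIs of 3.24 (2.91 to 3.60). It is an abundant macrophage gene and was at 38.8 and 123 CP10K in the macrophage class, and it was higher in S303/7A in all 4 tumor clusters. The 7 summed macrophage markers were higher in S303/7A too, 1.68 against 2.60 CP10K, and 89.5% and 98.6% of C08 cells held a UMI of 1 of them. All 8 measured genes of the wider macrophage list were above 0, beside 42.7% of all genes, with a median of 0.50. Apoe was also higher in S303/7A in CD8 T cells (1.46 and 5.18 CP10K) and in natural killer cells (1.08 and 5.20). Leaving out cells holding over 3 CP10K of the 7 markers kept 379 WT and 224 S303/7A cells of C08. In that setting the log2 ratio of Apoe was 2.04, and the part of RNA from macrophages outside the cells was not tested. For Cst3, whose macrophage level was 25.7 and 30.5 CP10K, that setting gave 1.33, and for Id2, at 1.94 and 2.59 in macrophages, 1.64.

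**Figure D4:**
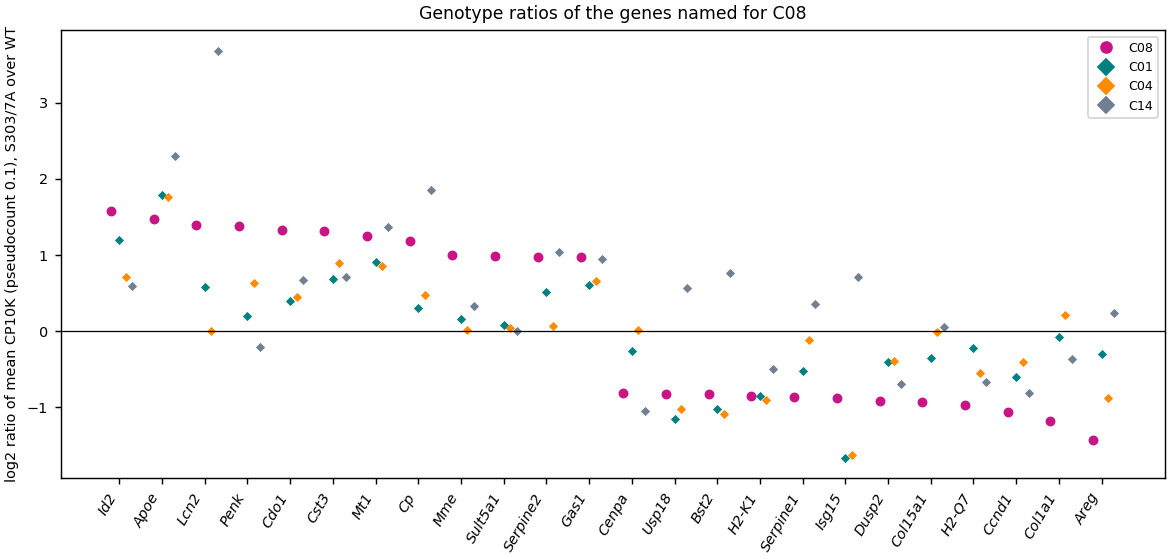
Log2 ratio of mean CP10K (0.1 added) of S303/7A over WT for the 12 highest and the 12 lowest named genes of C08, in C08 and in C01, C04 and C14. Mt1, Cst3, Id2, Apoe and Gas1 lie above 0 in all 4 clusters, while Isg15, Bst2 and Usp18 lie below 0 in C08, C01 and C04 and above 0 in C14.

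Growth-related genes stood among the lowest. Areg was at 0.801 CP10K in C08 of WT and 0.233 in S303/7A, a ratio of summed UMIs of 0.288 (0.248 to 0.334). Ccnd1, cyclin D1, which carries mitogen signals into the cell cycle, was at 5.84 and 2.75, a ratio of 0.513 (0.491 to 0.537), and was below 0 in each of the other clusters. Dusp6 (1.27 and 0.804), Dusp5 (0.241 and 0.124) and the ERK-induced factor Etv4 (0.513 and 0.306) were also lower, which made 4 of 15 measured members of the FGF, EGF and ERK feedback list lower and 0 higher. Over all genes 0.644% were lower and 0.798% higher. The list's median was -0.11, and its other members did not pass 1.5-fold. The medians in C01, C04 and C14 were -0.16, -0.14 and -0.14, so the lower level was not particular to C08. In C04 4 of 14 members were lower and 0 higher, in C01 0 of 11 passed either way, and in C14 1 of 14 was lower and 2 higher. Of all genes 1.39%, 1.2% and 1.61% were lower in C01, C04 and C14, and 0.429%, 0.492% and 2.46% higher. Of the 5 proliferation genes measured in C08, 0 passed 1.5-fold.

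Interferon-stimulated genes were lower in C08 of S303/7A. Of 25 measured members 6 were at least 1.5-fold lower and 0 higher, 24 lay below 0, and the median was -0.39. Over all genes 0.644% were lower, 0.798% higher and 57.3% below 0. Isg15, a ubiquitin-like protein, was at 2.72 and 1.43 CP10K, a ratio of summed UMIs of 0.574 (0.536 to 0.615). In C01 25 of 29 measured members were lower, with a median of -1.02, and in C04 22 of 27, with a median of -0.96. Of all genes 1.39% were lower in C01 and 1.2% in C04. In C14 12 of 25 were higher and 0 lower, beside 2.46% and 1.61% of all genes, with a median of 0.57. Between clusters, 12 of 29 measured members were at least 1.5-fold lower in C08 than in C01 in both libraries and 0 higher, with medians of -1.04 in WT and -0.51 in S303/7A. Against C04 2 were lower and 0 higher, and the medians were -0.37 in WT and 0.17 in S303/7A. Against C14 3 were lower and 1 higher, and the medians were 0.45 in WT and -0.40 in S303/7A. Of all genes 4.44% were lower than in C01, 6.82% than in C04 and 2.58% than in C14. Isg15 in WT was at 2.72 in C08, 7.93 in C01, 4.16 in C04 and 1.78 in C14.

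Antigen presentation on MHC class I, which interferon raises and which natural killer cells read, was also lower in C08 of S303/7A. Of 17 measured members 6 were lower and 0 higher, beside 0.644% and 0.798% of all genes, and the median was -0.44. In C01 15 of 19 were lower (median -0.68), in C04 10 of 18 (-0.63) and in C14 1 of 15 (-0.27), with 0 higher in each. Of all genes 1.39%, 1.2% and 1.61% were lower in these 3 clusters. The median in C14 was thus below 0, whereas that of interferon genes there was above 0. H2-K1, a class I heavy chain, was at 6.54 and 3.57 CP10K, a ratio of summed UMIs of 0.548 (0.525 to 0.573). B2m, its light chain, was at 38.1 and 25.7. Without cells holding over 3 CP10K of macrophage markers the medians were -0.48 for this list and -0.46 for interferon genes.

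Chaperone genes, the classic targets of HSF1, lay mostly below 0 in S303/7A against WT, with 0 past 1.5-fold after the addition of 0.1 CP10K. Of 21 measured heat shock genes 18 lay below 0, beside 57.3% of all genes, and the median was -0.22, beside -0.03 over all genes. Hsph1 was at 0.244 and 0.135 CP10K, which is past 1.5-fold without that addition. Hsp90aa1 was at 2.17 and 1.63, Dnajb1 at 0.348 and 0.244, and Hspa8 at 11.7 and 11.5. The medians in the other clusters were -0.24 in C01, -0.26 in C04 and -0.04 in C14. Chaperones of the endoplasmic reticulum had a median of -0.20 in C08 and the integrated stress response one of -0.25, with Nupr1 (10.7 and 6.91) the single member past 1.5-fold.

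**Figure D5:**
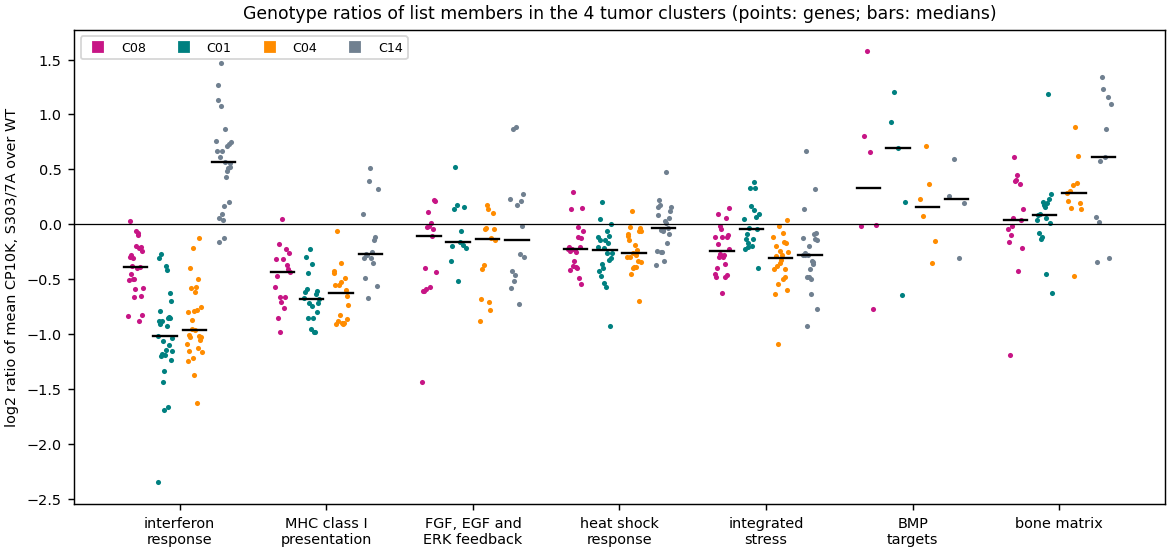
Log2 ratio of mean CP10K (0.1 added) of S303/7A over WT for the measured members of 7 gene lists in the 4 tumor clusters, with points for genes and bars for medians. Interferon genes have medians of -0.39 in C08, -1.02 in C01 and -0.96 in C04 and a median of 0.57 in C14, while the medians of heat shock genes lie between -0.26 and -0.04.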

How the data were processed

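Single-cell 3′ end libraries of 1 WT and 1 S303/7A sample were read from the deposited table of 11456 cells and 16416 genes. Its values are natural log values: the authors scaled each UMI count to 100000 per cell, added 1 and took the natural log, as the values themselves show. The total UMI count, the number of genes and the mitochondrial percent of each cell, its cluster, class, copy number group and UMAP axes (a score without unit) were deposited by the authors. The tools named per the submitters' processing notes are Cell Ranger and Seurat 3.0, with the builds mm10 and GRCm38; roles and settings are not stated in any source used here. Whole counts were recovered to within 0.1 UMI for 99.9% of the values above 0.

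Levels are mean UMIs per 10000 (CP10K), ratios use a pseudocount of 0.1 CP10K, and genes need 0.1 CP10K in 1 group. Summed UMI ratios carry exact conditional intervals and shares exact Clopper-Pearson intervals. A call means 1.5-fold, with no test. Named genes are up to 25 C08-high and 15 C08-low genes and the 12 highest and 12 lowest genotype ratios, each in 10% of cells, without ribosomal, mitochondrial, Gm and Rik genes, plus markers, list members and the 10 genes most like Spp1; some genes that meet it are not reported here. The members and lists were chosen with earlier results of these data known. Doublets were scored with Scrublet (scanpy 1.11.5), whose automatic threshold marked 0.827% and 0.0833% of cells, so the 361 and 215 highest scores were left out as an alternative only. Positions come from GENCODE M21. Python 3.11.15, pandas 2.3.3, scipy 1.17.1 and numpy 2.4.6 were used, and the measures were tested on simulated data.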

Additional observations from a re-analysis of the deposited data

Results flagged for a closer look

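Interferon genes differed between C08 and C14 in the direction of the genotype ratio. On the log2 scale, S303/7A over WT was -0.88 for Isg15 in C08 and 0.72 in C14, -0.83 and 0.76 for Bst2, and -0.66 and 0.67 for Ifit3. The interferon list had medians of -0.39 in C08 and 0.57 in C14. The libraries went opposite ways in the 2 clusters, and with 1 library per genotype the difference was not tested.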

How the results depend on the processing

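As reported, 14 genes were C08-high, 3 C08-low, 57 higher and 46 lower in S303/7A. These counts became 29, 9, 126 and 158 with a pseudocount of 0.02 CP10K, 6, 1, 16 and 8 with 0.5 CP10K, and 5, 0, 9 and 3 at 2-fold. A filter of 0.5 CP10K left 31 higher and 28 lower, and thinning gave 142 and 182. C08-low genes numbered 1 without the highest doublet scores and 1 in CNV3 cells only. Against C01 and C14 only there were 23 C08-high and 8 C08-low genes, in the WT library alone 26 and 5, in S303/7A alone 31 and 6, and against pooled tumor cells 64 and 206. C08 shares without C04 in the denominator were 25.3% and 34.8% (ratio 1.38), and the S303/7A share with stromal cells included was 26.0%. The share of higher genes among those past 1.5-fold was 55.3% as reported, 43.8% after thinning, 44.4% and 66.7% with the lower and higher pseudocount and 75% at 2-fold. Signs turned for the Wnt list (-0.0562 without the 20 most abundant genes), Cxcl10 (0.56) and Rsad2 (0.14) without the highest doublet scores, and Col15a1 (0.0126) in CNV3 cells. Of 680 other values of single genes 547 were the same within their counting error and 130 moved, and of 362 list medians 326 and 35. The causes were not tested. Leaving out cells with 1 UMI of 10 immune markers was not run, since it kept 27 and 2 C08 cells. Leaving out cells rich in macrophage markers was chosen after seeing the data. No paired analysis was possible because each genotype had 1 library.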

Other observations

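Cholesterol synthesis genes were lower in C08 than in C04. Against C04, 9 of 14 measured members were at least 1.5-fold lower in both libraries and 0 higher, beside 6.82% and 3.54% of all genes. The medians were -0.78 and -0.93. Against C01 the medians were 0.19 and 0.08 and against C14 0.14 and 0.07, with 0 members past 1.5-fold in either direction. All 14 reached 0.1 CP10K in C04, but 8 did in C08, 4 in C01 and 8 in C14. The filter thus favors C04, and the added 0.1 CP10K pulls ratios of low genes toward 0. Within C08 all 8 measured members lay below 0 in S303/7A against WT, beside 57.3% of all genes. Their median was -0.41, and 1 was past 1.5-fold. Sqle, squalene epoxidase, was at 0.168 CP10K in C08 of WT and 0.0781 in S303/7A.

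Glycolysis and hypoxia genes were lower in C08 than in C14 for 9 of 24 measured members and higher for 0, beside 2.58% and 4.69% of all genes. The medians were -0.48 and -0.76. Timp3, an inhibitor of metalloproteinases bound to the matrix, was at 2.05 and 2.93 CP10K in C08, near C01 (2.38 and 3.69) and above C04 (0.552 and 0.884). The osteopontin receptor Cd44 was at 1.40 and 1.28 in C08, above C01 (1.00 and 0.885) and below C14 (2.12 and 2.26).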
